A study of Mus musculus with 12 samples.

Results

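The genes described here are 7 components of the kinetochore, the centromere, the spindle checkpoint, centromere cohesion and the chromosomal passenger complex, namely Spc24, Cenpi, Cenpp, Cenpe, Bub1b, Sgo1 and Cdca8. They had been picked from earlier results of these same arrays, for their differences between stages and with antigen. Their single-positive antigen effect, both stage differences and the contrast between the 2 antigen effects are therefore given as descriptions. Limma calls on these comparisons are counted below but do not serve as tests, since the same values chose the genes. All probe sets that the platform annotation assigns to 1 of these symbols alone were taken. That gave 12 probe sets of the 22511 on the array that are not controls, and 7 genes of 9607 with a symbol. Bub1b had 2 probe sets, Cenpp and Cdca8 had 3 each, and the other 4 genes had 1 each.

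RNA was measured in sorted thymocytes of B10 mice, 6 to 8 weeks old and untreated, on 12 Affymetrix MOE430B arrays. CD4+ single-positive thymocytes came from mice with a transgenic T cell receptor and HEL (TCR:HEL), labelled as undergoing negative selection, or from mice with the transgenic receptor alone (TCR), labelled as undergoing positive selection. Double-positive thymocytes of TCR:HEL and of TCR mice are labelled as pre-selection cells. Each of the 4 groups had 3 biological replicates, and all 4 groups carry the receptor transgene. The labels do not name the receptor's chains, the promoter of the HEL transgene or how many mice gave each sample, and the design text calls one kind of mouse only B10, so the titles were used. RNA from 100000 to 1000000 cells per sample was amplified with a small-sample protocol. In such bulk samples, fewer cells of a type and less RNA per cell cannot be told apart.

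The kinetochore is the protein assembly that joins a chromosome's centromere to the spindle. Its inner layer sits on centromeric chromatin, its outer layer holds microtubules, and the spindle checkpoint delays anaphase until every chromosome is attached. Shugoshin guards the cohesin that holds sister centromeres together, and the chromosomal passenger complex carries Aurora B kinase to the centromere to correct wrong attachments. Most of these genes are transcribed late in the cell cycle. In the thymus, double-positive cells arise from a burst of division, and single-positive cells that pass selection are largely resting.

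Late cell cycle promoters often hold a cell cycle genes homology region (CHR; here the letters TTTGAA or TTCGAA) and CCAAT boxes, bound by MuvB complexes and by NF-Y. Because the genes moved together, RefSeq promoters of build GRCm38.p6, from 250 bases before to 50 bases after the start, were searched for both motifs on both strands. Promoters were held for 6 of the 7 genes, all but Spc24. A CHR lay in 3 of 6, against 19.2% of all 32851 promoters of the same length, CCAAT in 5 of 6, against 37.4%, and both in 3 of 6, against 7.52%. These matches are descriptions of the letters in the window. The 3 promoters with both motifs and that of Cenpe, the gene with the least difference between stages in TCR:HEL cells, are shown with matches in capitals (ATTGG is CCAAT on the other strand).
Bub1b, chr2:118597961-118598260, plus strand: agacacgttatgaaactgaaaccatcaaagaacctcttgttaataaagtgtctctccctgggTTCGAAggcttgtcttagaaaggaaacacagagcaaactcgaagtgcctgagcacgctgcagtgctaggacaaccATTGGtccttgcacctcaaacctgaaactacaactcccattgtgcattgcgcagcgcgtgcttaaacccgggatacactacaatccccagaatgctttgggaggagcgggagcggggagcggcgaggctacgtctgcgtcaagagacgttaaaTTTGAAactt
Cdca8, chr4:124936868-124937167, minus strand: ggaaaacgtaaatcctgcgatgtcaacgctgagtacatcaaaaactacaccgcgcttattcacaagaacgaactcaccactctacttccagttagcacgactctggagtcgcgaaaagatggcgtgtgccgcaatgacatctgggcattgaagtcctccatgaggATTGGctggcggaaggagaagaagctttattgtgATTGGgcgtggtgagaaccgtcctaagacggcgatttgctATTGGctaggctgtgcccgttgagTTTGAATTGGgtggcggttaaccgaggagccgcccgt
Sgo1, chr17:53689266-53689565, minus strand: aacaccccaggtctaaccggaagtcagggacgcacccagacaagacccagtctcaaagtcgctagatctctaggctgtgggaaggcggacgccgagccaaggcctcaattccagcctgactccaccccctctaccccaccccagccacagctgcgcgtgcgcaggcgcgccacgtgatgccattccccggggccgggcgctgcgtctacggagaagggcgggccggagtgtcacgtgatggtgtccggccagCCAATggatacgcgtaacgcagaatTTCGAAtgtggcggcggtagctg
Cenpe, chr3:135212313-135212612, plus strand: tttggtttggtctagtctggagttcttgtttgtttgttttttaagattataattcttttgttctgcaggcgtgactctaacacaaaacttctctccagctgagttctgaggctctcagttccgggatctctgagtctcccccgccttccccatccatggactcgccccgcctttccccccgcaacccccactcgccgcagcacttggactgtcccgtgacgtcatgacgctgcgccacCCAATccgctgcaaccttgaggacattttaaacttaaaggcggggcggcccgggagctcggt
The Bub1b window holds TTCGAA at position -188 and TTTGAA at position 41, counted from the gene's start. Cdca8 has TTTGAA at position 14, overlapping 1 of its 4 CCAAT boxes, and Sgo1 has TTCGAA at position 28. In the Cenpe window, 1 CCAAT was found, at position -12, and no CHR. Of the windows not printed, that of Cenpi also held a CCAAT, at position 8, and no CHR, and that of Cenpp held neither motif. Cenpi and Cenpp 1429095_at still differed between stages in TCR:HEL mice, by -2.60 and -2.46 (log2). A link between motifs and stage differences was not tested.

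Array medians lay between 63 and 81.3 signal units, which gives a scale for the values that follow. The arrays fell into 3 hybridization periods. Period 1 held replicate 1 of both single-positive groups, period 2 held replicate 2 of TCR single-positive, replicates 1 and 2 of TCR:HEL double-positive and all 3 TCR double-positive arrays, and period 3 held the other 4. The Gapdh 5′ to 3′ signal ratio, a measure of RNA integrity and amplification length, was lowest in replicate 1 of TCR:HEL single-positive (0.0856), TCR single-positive (0.0379) and TCR double-positive (0.107), with 0.195 to 0.453 on the other arrays. Markers of stage were in part on the array: 3 of 11 double-positive markers summed to 1228 to 2040 signal units in TCR:HEL single-positive cells, 886.1 to 1084 in TCR single-positive cells, 5930 to 6957 in TCR:HEL double-positive cells and 7510 to 9004 in TCR double-positive cells. The 1 measured marker of mature single-positive cells, Gimap7, had 202, 203 and 208 units in TCR:HEL single-positive cells and 589, 569 and 862 in TCR single-positive cells, against 95.6 to 137 in TCR:HEL double-positive and 61.0 to 171 in TCR double-positive cells. In single-positive cells, 3 of 10 B cell markers summed to 336.4 to 508 units with TCR:HEL and 209.1 to 359.8 with TCR, 2 of 11 myeloid markers to 368 to 427.5 and 349.9 to 469.8, and 5 of 9 stromal markers to 1210 to 1673 and 2135 to 3809, in the same order. Most of the stromal sum was Epcam alone, at 1550, 1080 and 1010 units with TCR:HEL and 3590, 1930 and 2730 with TCR. Dcn had 76, 65 and 89 units with TCR:HEL and 141, 94.5 and 115 with TCR. The other 3, Foxn1, Col1a2 and Pdgfra, were below the array median on every single-positive array.

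All 12 probe sets passed the filter on low signal, some only through the groups in which they are high. Most showed 1 order of the 4 groups. Signals in TCR:HEL single-positive cells lay above those in TCR single-positive cells and below those of both double-positive groups, which overlapped for 11 of the 12 probe sets.

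**Figure D1:**
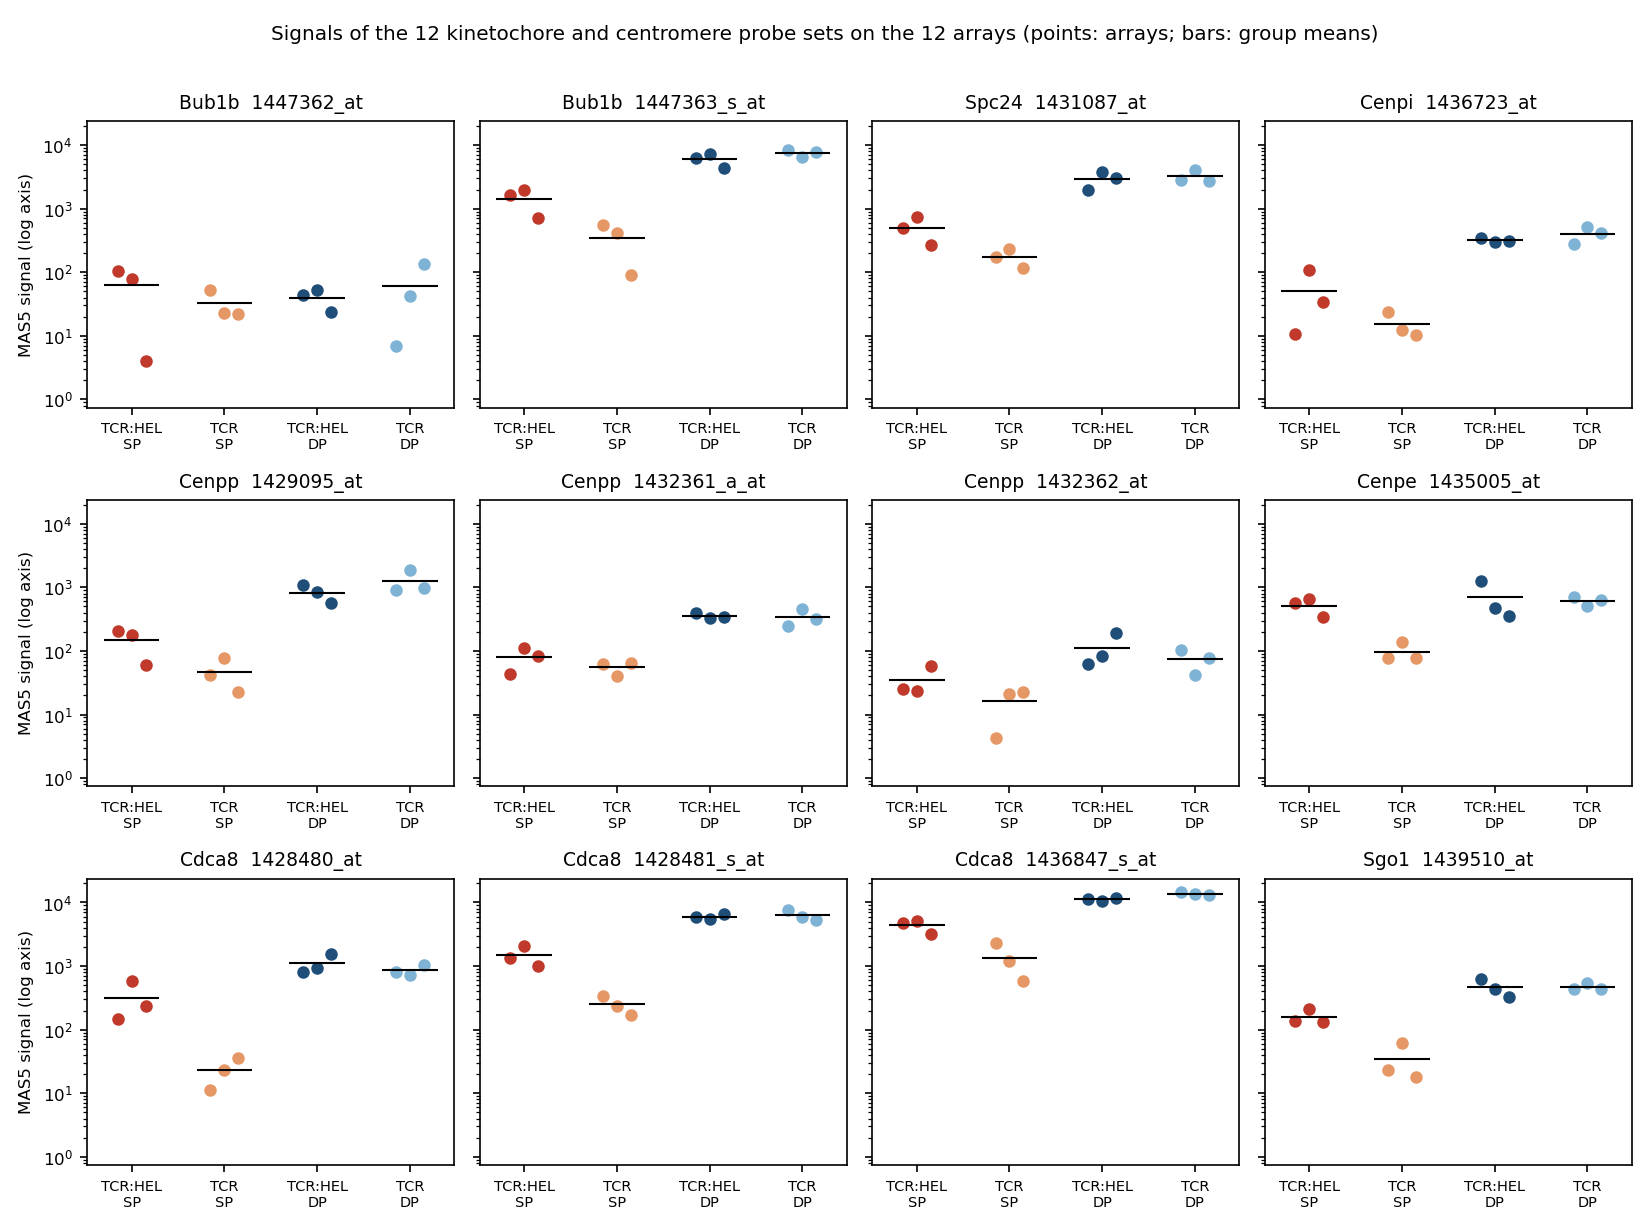
Signal of the 12 probe sets on each of the 12 arrays (log axis, MAS5 signal units), by group; points are arrays and bars are group means, and SP and DP stand for single-positive and double-positive. In 8 of the 12 panels all TCR:HEL SP arrays lie above all TCR SP arrays.

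Spc24 is a subunit of the NDC80 complex, the outer kinetochore's grip on microtubules. Its probe set read 501, 731 and 269 units in TCR:HEL single-positive cells, 176, 230 and 117 in TCR single-positive cells, 1930, 3820 and 3060 in TCR:HEL double-positive cells, and 2870, 3990 and 2760 in TCR double-positive cells. Both single-positive groups lay below both double-positive groups, and all 3 TCR:HEL single-positive arrays were above the 3 TCR ones. The group means were 500 ± 231, 175 ± 56.2, 2936 ± 949 and 3205 ± 682 (SD, n = 3 each) in that order. Log2 fold changes, taken throughout on log2(signal + 16), were 1.38 ± 0.37 (SE) between TCR:HEL and TCR single-positive cells, -2.57 ± 0.37 for single- minus double-positive in TCR:HEL mice and -4.10 ± 0.37 in TCR mice.

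Cenpi and Cenpp belong to the constitutive centromere-associated network, the inner layer on which the kinetochore is built. Cenpi read 10.5, 108 and 34.1 units in TCR:HEL single-positive cells and 24.1, 12.3 and 10.2 in TCR single-positive cells, against 346, 296 and 307 in TCR:HEL double-positive and 278, 509 and 414 in TCR double-positive cells. The 2 single-positive groups overlapped, 5 of their 6 arrays were below every array median, and both were far below the double-positive groups. Its stage difference was -2.60 ± 0.44 in TCR:HEL and -3.71 ± 0.44 in TCR mice, and its single-positive antigen difference was 0.82 ± 0.44.

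Of the 3 Cenpp probe sets, 1429095_at read 203, 179 and 59.7 units in TCR:HEL single-positive cells and 42.1, 77.5 and 22.5 in TCR single-positive cells, which overlapped. Both double-positive groups were higher, at 1070, 842 and 561 units in TCR:HEL and 894, 1870 and 974 in TCR cells. Its stage difference was -2.46 in TCR:HEL and -4.33 in TCR mice (SE 0.44 each). Of the other 2 probe sets, 1432361_a_at differed between stages by -2.03 ± 0.32 in TCR:HEL and -2.29 ± 0.32 in TCR mice, and 1432362_at by -1.25 ± 0.50 and -1.49 ± 0.50 in the same order. Their single-positive antigen differences were 0.36 ± 0.32 and 0.68 ± 0.50, against 1.32 ± 0.44 for 1429095_at. Over the 12 arrays the Cenpp probe sets correlated with each other at r = 0.656 to 0.899. All 3 had lower means in single-positive cells of both kinds of mouse, and the differences between probe sets were not tested.

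Cenpe is a kinesin motor of the outer kinetochore that carries chromosomes towards the spindle equator. It read 558, 648 and 345 units in TCR:HEL single-positive cells, 76.8, 139 and 76.9 in TCR single-positive cells, 1250, 482 and 353 in TCR:HEL double-positive cells, and 705, 502 and 626 in TCR double-positive cells. It departed from the shared order: the TCR:HEL single-positive arrays overlapped the TCR:HEL double-positive arrays, and the TCR single-positive arrays alone stood below all others. Its stage difference was -0.25 ± 0.40 in TCR:HEL mice, or 0.27 ± 0.35 without TCR:HEL double-positive replicate 1, and -2.50 ± 0.40 in TCR mice, and its single-positive antigen difference was 2.23 ± 0.40. TCR:HEL double-positive replicate 1 had the highest signal and the other 2 arrays of that group, at 482 and 353 units, the lowest of the double-positive arrays.

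Bub1b encodes BubR1, a part of the mitotic checkpoint complex that holds back the anaphase-promoting complex. Probe set 1447363_s_at read 1620, 1930 and 704 units in TCR:HEL single-positive cells, 546, 415 and 90.0 in TCR single-positive cells, 6210, 7280 and 4400 in TCR:HEL double-positive cells, and 8210, 6410 and 7670 in TCR double-positive cells. The single-positive groups did not overlap each other or the double-positive groups. Replicate 3 was the lowest in both single-positive groups. The differences were 2.16 ± 0.51 for antigen in single-positive cells, -2.15 ± 0.51 for stage in TCR:HEL and -4.65 ± 0.51 for stage in TCR mice. The other probe set, 1447362_at, was above the array median on 3 arrays only and did not follow: it read 104, 78.2 and 4.07 units in TCR:HEL single-positive and 52.0, 22.8 and 22.4 in TCR single-positive cells, and 43.3, 52.6 and 23.8 in TCR:HEL double-positive and 6.99, 42.6 and 133 in TCR double-positive cells. All 4 groups overlapped for it, and the 2 Bub1b probe sets correlated at r = 0.257 over 12 arrays, against r = 0.896 to 0.980 among the 3 Cdca8 probe sets.

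Sgo1 encodes shugoshin 1, which protects centromeric cohesin until anaphase. Its signals were 136, 215 and 130 units in TCR:HEL single-positive cells, 22.8, 62.2 and 17.8 in TCR single-positive cells, 637, 438 and 331 in TCR:HEL double-positive cells, and 443, 532 and 434 in TCR double-positive cells. The 3 levels were separate, and the double-positive groups overlapped. The TCR single-positive arrays were all below their array medians. Its differences were 1.88 ± 0.35 for antigen in single-positive cells, -1.44 ± 0.35 for stage in TCR:HEL and -3.37 ± 0.35 for stage in TCR mice.

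Cdca8 encodes borealin, the chromosomal passenger subunit that anchors the complex at centromeres. Probe set 1428481_s_at read 1320, 2080 and 1020 units in TCR:HEL single-positive cells, 339, 236 and 172 in TCR single-positive cells, 5800, 5460 and 6490 in TCR:HEL double-positive cells, and 7540, 5870 and 5350 in TCR double-positive cells. Single-positive groups were apart from each other and from the double-positive groups, which overlapped. It differed by 2.48 ± 0.30 for antigen in single-positive cells, by -2.05 ± 0.30 for stage in TCR:HEL mice and by -4.60 ± 0.30 for stage in TCR mice. Probe set 1428480_at read 148, 572 and 237 units in TCR:HEL single-positive cells and 11.3, 23.5 and 35.9 in TCR single-positive cells, with 805 to 1550 units in TCR:HEL and 720 to 1030 in TCR double-positive cells. Its TCR single-positive values were all below the array median, and its antigen difference of 2.92 ± 0.41 was 1.98 on log2(signal + 64), against 2.27 for 1428481_s_at on that scale. The third probe set, 1436847_s_at, read 4680, 5160 and 3220 units in TCR:HEL single-positive cells and 2280, 1220 and 573 in TCR single-positive cells, a difference of 1.85 ± 0.37. All 3 probe sets had the same order of single-positive groups, with no overlap.

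Counted over probe sets, 12 of 12 were higher in TCR:HEL than in TCR single-positive cells, with a median difference of 1.61 (0.36 to 2.92) against 0.01 for all 13703 probe sets. For 8 of 12 the groups did not overlap, against a background of 5.74% of probe sets in that direction. Limma called 4 of the 12, those of Cenpe and Sgo1 and 2 of Cdca8, against 0.146% of all probe sets called higher. The genes had been chosen in part on this comparison, and nothing is read from these counts. With the replicate number as a block, 6 were called, the added ones being Bub1b 1447363_s_at and Cdca8 1436847_s_at. Leaving out single arrays and the other alternatives gave 2 to 6 calls, with Cdca8 1428480_at and 1428481_s_at called in each, also without the 3 arrays of the lowest Gapdh ratio, an alternative added after seeing the data. The count was 2 without any one of the 3 TCR:HEL single-positive arrays and without replicate 3 of TCR single-positive, and the calls for Cenpe and Sgo1 were each lost in at least 8 of 14 alternatives.

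**Figure D2:**
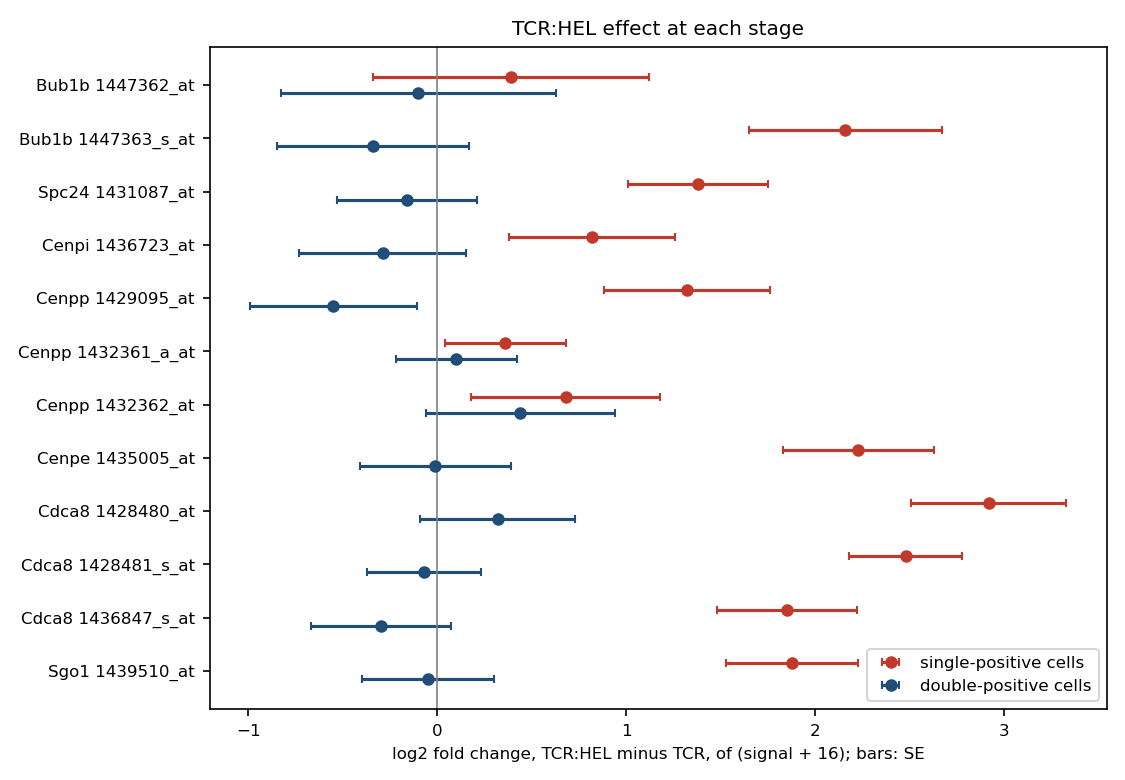
TCR:HEL minus TCR difference (log2, with SE from limma) of the 12 probe sets in single-positive and in double-positive cells, from 3 arrays per group. All 12 single-positive differences are above 0, and the double-positive ones lie between -0.55 and 0.44.

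Within 1 hybridization day, where both single-positive groups were run side by side for replicate 1 and again for replicate 3, the difference could be read pair by pair. Cdca8 1428481_s_at differed by 1.91 and 2.46, Cenpe by 2.63 and 1.96, Sgo1 by 1.97 and 2.11, Spc24 by 1.43 and 1.10, and Bub1b 1447363_s_at by 1.54 and 2.76. The 2 pairs thus had the direction of the pooled value for these genes. Their arrays are part of that value, which helped to choose the genes, so the pairs are not a separate check. Cenpi differed by -0.60 and 0.93, Cenpp 1432361_a_at by -0.38 and 0.28 and Bub1b 1447362_at by 0.82 and -0.94, so that these changed sign between pairs. Cd8a, the double-positive co-receptor, had 986, 1560 and 810 units in TCR:HEL single-positive cells and 731, 705 and 516 in TCR single-positive cells, without overlap and with a difference of 0.73 ± 0.27 (limma, adjusted p = 0.536). Another double-positive marker, Arpp21, had 119, 73.3 and 115 units in TCR:HEL and 2.65, 20.7 and 50.2 in TCR single-positive cells (1.71 ± 0.41, adjusted p = 0.151). The third measured one, Rmnd5a, had 272, 408 and 303 units in TCR:HEL and 350, 338 and 320 in TCR single-positive cells, which overlapped (-0.05 ± 0.25, adjusted p = 0.984). For Gimap7 the difference was -1.62 ± 0.32 (adjusted p = 0.0602). None of the 4 markers passed limma's test between the single-positive groups, and the part of Cd8a, Arpp21 and Gimap7, whose groups did not overlap, in the genes' difference was not tested.

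In double-positive cells, none of the 12 probe sets passed limma's test between TCR:HEL and TCR (adjusted p = 1 for each, and 0 with an unadjusted p under 0.05). This double-positive comparison did not itself serve to choose the genes. The contrast between the antigen effects did, and it subtracts the double-positive difference. The stage differences, which also served, use the same double-positive arrays. Neither the absence of calls nor the signs of the double-positive differences are therefore independent of the choice. Over all 13703 probe sets 0% were called, with 339 at an unadjusted p under 0.05. Differences ran from -0.55 ± 0.44 for Cenpp 1429095_at to 0.44 ± 0.50 for Cenpp 1432362_at, 9 of the 12 were negative, and the median was -0.09 against 0.02 for all probe sets. The 95% intervals bound what the arrays could show: -0.71 to 0.58 for Cdca8 1428481_s_at, -0.78 to 0.69 for Sgo1, -0.88 to 0.85 for Cenpe, -0.94 to 0.62 for Spc24 and -1.42 to 0.74 for Bub1b 1447363_s_at. Only Cdca8 1436847_s_at had groups that did not overlap, with 11300, 10500 and 11600 units in TCR:HEL and 14700, 13400 and 13000 in TCR double-positive cells (-0.30 ± 0.37), against 3.92% of probe sets lower without overlap.

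The contrast between the 2 antigen effects, single-positive minus double-positive, was positive for 12 of 12 probe sets, with a median of 1.90 (0.24 to 2.60) against -0.01 for all probe sets. It was 2.60 ± 0.59 for Cdca8 1428480_at, 2.55 ± 0.43 for Cdca8 1428481_s_at, 2.5 ± 0.72 for Bub1b 1447363_s_at and 2.24 ± 0.57 for Cenpe. The lowest values belonged to Cenpp 1432362_at, Cenpp 1432361_a_at and Bub1b 1447362_at, at 0.24, 0.26 and 0.49. Limma called 0 of the 12 and 1 of all probe sets (0.0073%), with 609 at an unadjusted p under 0.05. This contrast too served to choose the genes.

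Set against double-positive cells, the mean signal left in single-positive cells showed the same order on a linear scale. Single-positive cells held 24.9% of the double-positive mean in TCR:HEL mice and 3.98% in TCR mice for Cdca8 1428481_s_at, 34.2% and 7.29% for Sgo1, 23.8% and 4.71% for Bub1b 1447363_s_at, 17.0% and 5.44% for Spc24, and 16% and 3.88% for Cenpi, with the TCR:HEL value first. Single arrays moved some of these by over 1.5 times: the TCR:HEL value of Cenpi was 7.04% without TCR:HEL single-positive replicate 2, and the TCR value of Sgo1 was 4.32% without TCR single-positive replicate 2. Cenpe kept 74.4% in TCR:HEL and 16% in TCR mice, but the first value was 124% without TCR:HEL double-positive replicate 1, so that on this scale its direction rested on that array. Its log2 stage difference in TCR:HEL mice ran from -0.62 to 0.34 over the alternatives, so its sign was not settled. The double-positive marker Cd8a kept 19.9% of the double-positive mean in TCR:HEL and 8.90% in TCR mice.

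**Figure D3:**
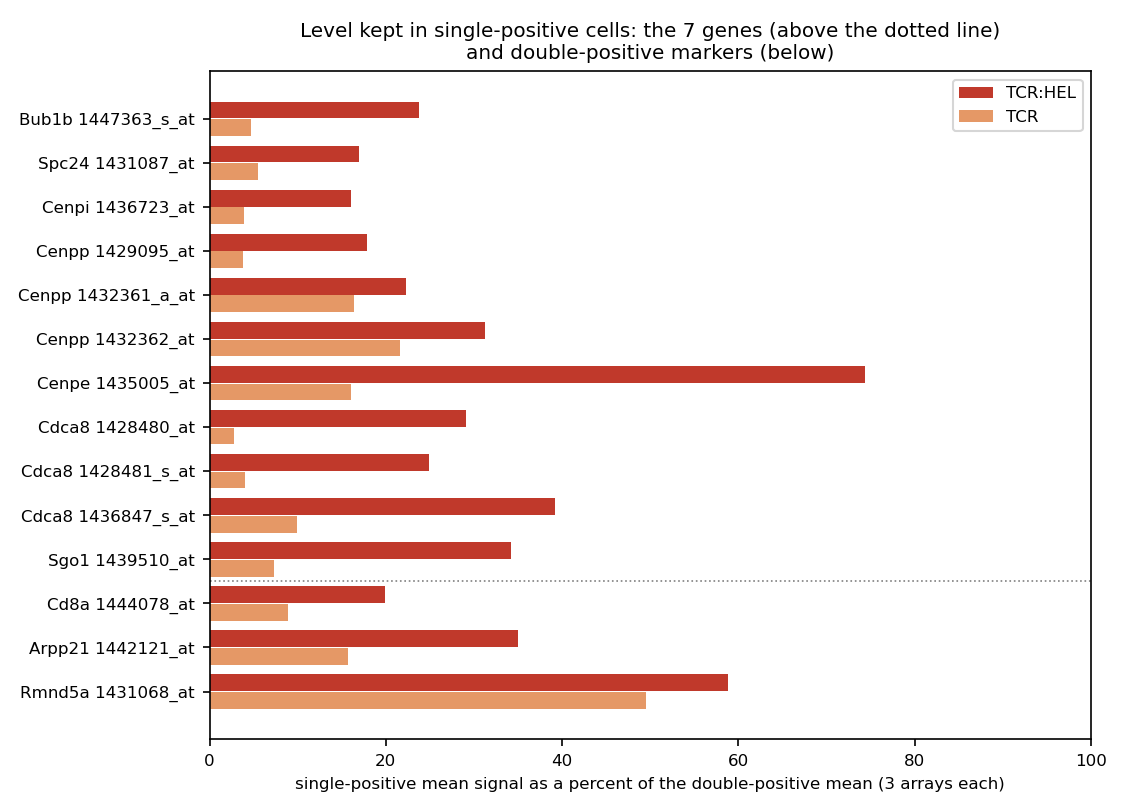
Mean single-positive signal as a percentage of the mean double-positive signal (linear axis), over all arrays, in TCR:HEL and in TCR mice, for 11 probe sets of the 7 genes, without Bub1b 1447362_at, and for 3 double-positive markers. Every one of these is higher in TCR:HEL mice, from 16% to 74.4% for the 7 genes, against 2.77% to 21.6% in TCR mice.

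Between stages, single-positive cells had lower signals for 11 of 12 probe sets in TCR:HEL mice, with a median of -1.95, and for 12 of 12 in TCR mice, with a median of -3.62, against 0.03 and 0.05 for all probe sets. Limma called 8 lower in TCR:HEL, for 6 genes (1.1% of all probe sets), and 10 lower in TCR mice, for 7 genes (2.42%). The groups did not overlap for 10 in TCR:HEL mice (8.87% of all probe sets lower without overlap) and 11 in TCR mice (8.81%). These counts too repeat values that chose the genes. The 10 TCR calls were made under each of 14 alternatives. In TCR:HEL mice the calls for Bub1b 1447363_s_at, Sgo1 and Cdca8 1428480_at were lost under some of them, while Spc24, Cenpi, Cenpp 1429095_at and 1432361_a_at and Cdca8 1428481_s_at were called under all 14.

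The stage comparisons could be read within a hybridization period only in part. In period 3, 2 TCR:HEL single-positive arrays minus 1 TCR:HEL double-positive array gave -1.90 for Bub1b 1447363_s_at, -2.74 for Spc24, -2.04 for Cenpi, -2.14 for Cdca8 1428481_s_at and -0.92 for Sgo1, but 0.41 for Cenpe. In period 2, 1 TCR single-positive array minus 3 TCR double-positive arrays gave -4.10 for Bub1b 1447363_s_at, -3.69 for Spc24, -3.84 for Cenpi, -4.62 for Cdca8 1428481_s_at, -2.63 for Sgo1 and -2.0 for Cenpe. With the exception of Cenpe in TCR:HEL mice, each had the direction of the pooled value. The same arrays are part of the pooled values that chose the genes, so this is not a separate check.

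Across the 12 arrays the 7 genes, at 1 probe set per gene, correlated pairwise at r = 0.690 to 0.987 (median 0.928 over 21 pairs), values set mainly by the differences between groups. The highest was between Bub1b 1447363_s_at and Cdca8 1436847_s_at, and the lowest between Cenpi and Cenpe. After removal of the group means the same pairs ranged from 0.012 to 0.891 with a median of 0.416. All points share their array, so that scaling and RNA quality enter each pair. A score averaging the genes' standardized log2 signals was -0.29, 0.03 and -0.61 in TCR:HEL single-positive replicates 1 to 3 and -1.20, -1.09 and -1.71 in TCR single-positive ones, against 0.92, 0.75 and 0.56 in TCR:HEL double-positive and 0.84, 0.95 and 0.84 in TCR double-positive cells. Replicate 3 was the lowest array of each single-positive group, and both of these arrays were hybridized on the same day.

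Of 6656 other genes, those whose log2 signal followed the 7-gene score most closely over the 12 arrays were BC035044 (r = 0.981), the centrosomal kinase Nek2 (0.977), the cohesion factor Dscc1 (0.976), Kntc1 (0.975), Knstrn (0.973), Dmwd (0.972), Arhgap19 (0.969), Ckap2l (0.968), Snai3 (0.968) and Cenpl (0.967). Kntc1, Knstrn and Cenpl are themselves kinetochore genes. As background, 102 of the genes had r over 0.9. Ranked on deviations from group means instead, Taf5 (0.959), 5430416N02Rik (0.953), Cnot11 (0.948), Rab7 (0.932) and Asb1 (0.930) led, a list with no gene in common with the first.

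The wider kinetochore and centromere list holds 74 further genes, of which 36 were on the array and 31 passed the filter. With 1 probe set per gene, that of the highest mean, 5 of the 31 (16.1%) were lower in single-positive than in double-positive cells of TCR:HEL mice and 0 higher, against 1.64% of 6663 genes called lower. They were Knstrn of the microtubule-end complex (-1.53 ± 0.30, adjusted p = 0.0135), the separase gene Espl1 (-1.97 ± 0.40, 0.0169), the inner centromere genes Cenps (-1.81 ± 0.39, 0.0251) and Cenpl (-1.48 ± 0.36, 0.0465), and Kntc1 of the RZZ complex (-1.73 ± 0.39, 0.0304). The list's median was -0.50, and 26 of 31 did not pass. Knstrn's other probe sets, 1442280_at (-0.79) and 1420082_at (-0.53), were not called here by limma (adjusted p = 0.207 and 0.769). This count rested on single arrays: it was 1 without replicate 1 and 0 without replicate 3 of TCR:HEL single-positive, and 3, 0 and 2 without replicates 1, 2 and 3 of TCR:HEL double-positive.

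In TCR mice 11 of the 31 (35.5%) were lower in single-positive cells and 0 higher, against 3.5% of all genes. The 11 were those 5, the inner centromere genes Cenpu and Cenpw, Oip5 of the CENP-A loading machinery, the passenger scaffold Incenp, the second shugoshin Sgo2a and the cohesin acetyltransferase Esco2. Those with the smallest p were Knstrn (-2.76 ± 0.30, adjusted p = 6.93e-05), Espl1 (-3.22 ± 0.40, 0.000229), Kntc1 (-3.03 ± 0.39, 0.000278) and Esco2 (-3.77 ± 0.50, 0.000362). The list's median was -0.55, and 20 of 31 did not pass, including the 3 checkpoint genes and the 3 outer kinetochore genes among the 31. Of these, Bub3 (40.9 to 102 units) and Trip13 (36.9 to 99.1) lay near the array medians, and Knl1 differed by -1.25 ± 0.41. In the same 2 classes, the chosen Bub1b 1447363_s_at and Spc24 differed by -4.65 and -4.10. The missing calls are therefore not read as a result about these classes. Nsl1 of the outer kinetochore differed by 0.64 ± 0.27 at the probe set used but by -2.38 at 1455852_at (adjusted p = 0.000566), so its direction depends on the probe set. Among further probe sets of the called genes, limma also called Knstrn 1442280_at (-2.26, adjusted p = 0.000191) and Cenpu 1452816_at (-1.2, 0.0397). It did not call Knstrn 1420082_at (0.04, adjusted p = 0.985), Esco2 1456311_x_at (-1.44, 0.116) or Cenpw 1453053_at (-0.69, 0.311). Among cyclins and other cycle switches, 5 of 17 genes (29.4%) were lower in single-positive cells of TCR:HEL mice and 9 of 17 (52.9%) in TCR mice. Of DNA replication genes, 5 of 16 (31.2%) were lower in TCR:HEL mice and 7 of 16 (43.8%) in TCR mice. Over all genes, 1.64% and 3.5% were called lower. Each of these list shares was above that of the 31 kinetochore list genes (16.1% and 35.5%), so the fall was not particular to them. The differences between lists were not tested.

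**Figure D4:**
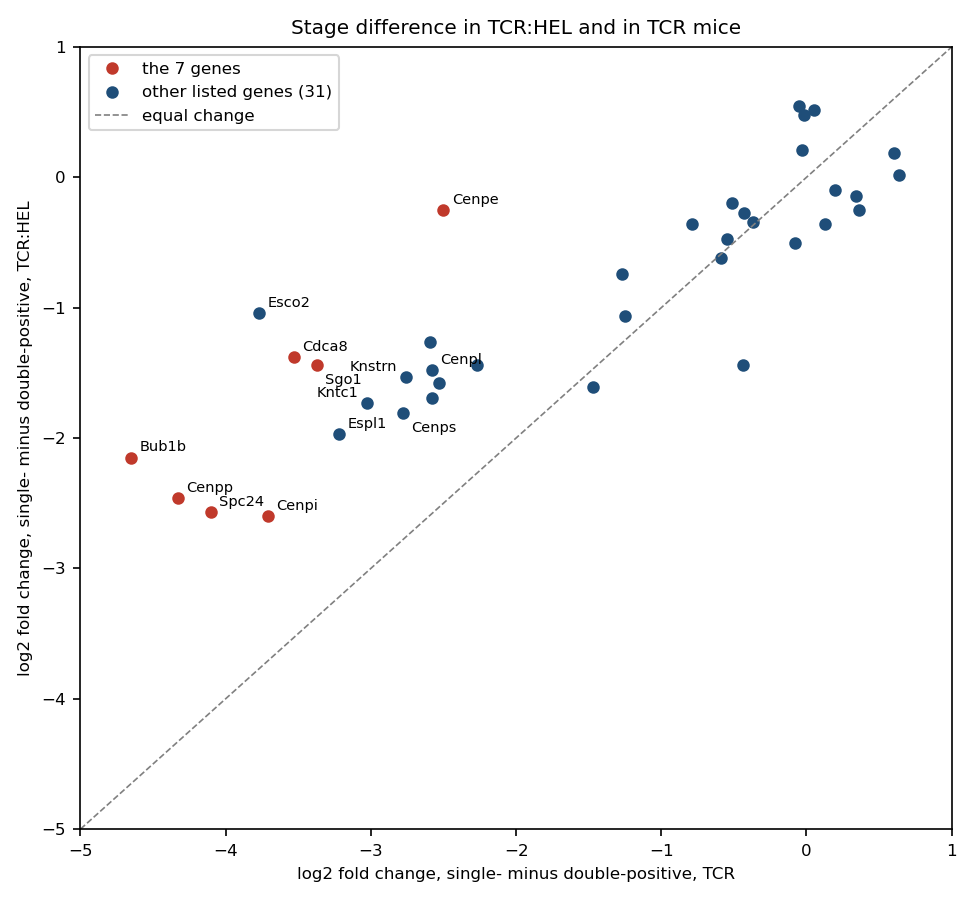
Single- minus double-positive difference (log2) in TCR:HEL and in TCR mice, 1 probe set per gene, for the 7 genes and the 31 other kinetochore list genes. The 7 genes reach down to -2.60 in TCR:HEL mice and to -4.65 in TCR mice.

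Between the single-positive groups 0 of the 31 other genes were called by limma (7 at an unadjusted p under 0.05), against 0.18% of genes called higher, with 22 positive and 9 negative differences and a median of 0.31 against 0.00 for all genes. Esco2 came closest, at 90.0, 130 and 83.0 units in TCR:HEL and 0.973, 15.8 and 1.53 units in TCR single-positive cells, which did not overlap (2.45 ± 0.50, adjusted p = 0.0626). Knstrn differed by 1.22 ± 0.30 (adjusted p = 0.159), Sgo2a by 1.53 ± 0.44 (0.298) and Incenp by 1.20 ± 0.38 (0.396). At other probe sets in the same limma fit, Esco2 1456311_x_at differed by 1.03 (adjusted p = 0.656). Knstrn 1442280_at differed by 1.31 (0.0781) and Knstrn 1420082_at by -0.17 (0.974). With the replicate block, whose numbers pair the single-positive samples, Esco2 (adjusted p = 0.0169) and Knstrn (0.0496) were called, and Esco2 was also called with hybridization period as a block (0.0342). In double-positive cells 0 of the 31 were called and 0 had an unadjusted p under 0.05, with a median of 0.05. The cycle switch and DNA replication lists also had 0 calls between the single-positive groups in the main fit, with medians of 0.44 and 0.47.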

How the data were processed

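The authors deposited MAS5 signals, linear intensity values per probe set, and the submitters' processing notes name MAS5 without settings. The 2% trimmed mean was 149.96 to 149.98 on every array, so the values were used as scaled. The deposited record files of the arrays gave chip lot (1) and hybridization day (8 days, grouped into 3 periods where gaps exceeded 35 days) and were read for batches only. Besides 64 control probe sets, which were dropped, a filter on low signal left 13703 probe sets, each with a signal above the array median on 3 or more of the 12 arrays. Of these, 9319 had 1 gene symbol in the platform annotation, 149 several and 4235 none, and symbols were updated through RefSeq.

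Signals were transformed as log2(signal + 16), which understates changes at low signal. Limma 3.58.1 in R 4.3.3 fitted 4 group means to all 12 arrays with a variance trend (8 residual degrees of freedom, and 7.01 from the prior). Two-sided p-values had Benjamini-Hochberg adjustment over all 13703 probe sets within each of 5 contrasts, with calls at 0.05. They set each difference against the spread between replicate samples, estimated jointly over the 4 groups. The fit was tested on simulated data. Gene lists used the probe set with the highest mean per gene. The genes and lists were chosen with earlier results of these data known. Named list genes are the 4 with the smallest p in each contrast. Nsl1 and the other called genes of the list were named after their values were seen. Likeness was ranked by Pearson's r with the mean standardized signal of the 7 genes. Same-numbered single-positive samples deviated together (r = 0.16, 0.20 and 0.19 over probe sets). The labels do not state such a pairing. The main fit, with its SEs, p-values and counts, did not use the replicate numbers, which entered only the replicate block alternative. In the other contrasts at least 1 such correlation was 0.1 or less. The number of arrays, 3 per group, limits the precision, and no detection calls were used. Alternatives were another pseudocount and filter, quantile normalization, replicate and period blocks, and arrays left out.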

Additional observations from a re-analysis of the deposited data

How the results depend on the processing

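Limma called 30 probe sets between the TCR:HEL and TCR single-positive groups. This count was 47 with a replicate block, 16 without hybridization period 1, 13 to 22 with 1 array left out, and 8 without the 3 arrays of the lowest Gapdh 5′ to 3′ ratio, an alternative chosen after seeing the data. Of the 31 other kinetochore list genes, 0 were called there, against 2 with the replicate block and 1 with period as a block. For single- minus double-positive cells of TCR:HEL mice, 271 probe sets were called, and 118 to 219 with 1 array left out. The list count of 5 was 8 with the replicate block, 3 with period as a block, 2 without period 1, 0 to 5 with 1 array left out, and 2 without the 3 low-ratio arrays. Same-numbered samples of this contrast correlated weakly (r = 0.09, 0.11 and 0.20). The highest values for other numbers were lower, at -0.03, 0.02 and -0.08. Whether the numbers pair these samples was not tested. For the same contrast in TCR mice, 484 probe sets were called, against 313 with period as a block, 293 to 417 with 1 array left out, and 320 without the low-ratio arrays. The list count of 11 was 10 to 12 throughout. The contrast between the antigen effects had 1 call, 4 with log2(signal + 64), and 0 under no filter, the 6-array filter, quantile normalization, the replicate block, the period block, without period 1 and without the low-ratio arrays, and 0 to 1 with 1 array left out. No call was made between the double-positive groups under any alternative. The 12 probe sets kept their direction in 165 of 166 single-positive antigen values, 143 of 166 double-positive ones, 158 of 166 TCR:HEL stage values, 165 of 166 TCR stage values and 231 of 238 values of the antigen contrast over the alternatives. These values share arrays, and most come from contrasts that chose the genes, so nothing is read from the tally. Quantile normalization moved the median of all probe sets by at most -0.05. The cause of the changed counts was not tested, apart from the loss of samples where arrays were left out. Probe sets below the array median, as for Cenpi and Sgo1 in TCR single-positive cells, have uncertain ratios.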
